A study of Mus musculus with 8 samples.

Results

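The genes described here are 10 genes by which a cell takes up, stores, senses and exports iron: *Tfrc*, *Slc11a2* and *Slc39a14* for uptake, *Fth1*, *Ftl1*, *Ncoa4* and *Pcbp1* for storage, *Aco1* and *Ireb2* for sensing, and *Slc40a1* for export. They were chosen by name, and every peak that the deposited H3K4me3 table assigns to them was taken. This gave 16 of the 35486 listed peaks and 10 of the 20871 listed genes. H3K4me3 is trimethylation of lysine 4 of histone H3, a mark that gathers at the start sites of genes in use. CUT&Tag libraries were made from tumor cells sorted from mouse lungs as CD45-CD31-EpCAM+, with 2 libraries of KL tumors (replicates 1 and 2) and 2 of KLG4m/m tumors (replicates 3 and 4).

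KL is the name of a mouse lung tumor model that Cre starts, and its mice carry Lkb1fl/fl, so that Cre removes *Lkb1*. KLG4m/m mice share the alleles of KL mice and also carry Gpx4m/m, in which Cre switches on DreERT2 from a CAG promoter and tamoxifen then lets this recombinase delete part of *Gpx4* in the tumor cells. Both groups received intranasal Ad-Cre and tamoxifen, and lungs were taken 10 weeks after Ad-Cre. The question put to the iron genes is whether their H3K4me3 differs between tumor cells with and without *Gpx4*, the peroxidase that clears lipid peroxides. The methods give the age of the mice at infection as 8 to 10 weeks. The methods give a total number of mice below the number of these libraries, while a figure legend of the study gives as many mice per group as libraries. Whether each library comes from its own mouse is not settled, so p-values below measure the spread between libraries.

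Iron enters most cells bound to transferrin through the transferrin receptor. What is not used is stored in ferritin, a shell of heavy and light chains, or leaves through ferroportin. Free ferrous iron drives lipid peroxidation, which is why iron handling is studied with ferroptosis, the death that GPX4 prevents. Much of the control of ferritin and of the transferrin receptor acts on their mRNAs, through the iron regulatory proteins that *Aco1* and *Ireb2* encode. A promoter mark does not measure that step.

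RefSeq promoter windows on GRCm38.p6, from 250 bases before to 50 bases after an annotated start site, were at hand for 7 of the 10 genes. The 250 bases before the start are shown for *Fth1*, the gene whose mark passed the test, for *Ftl1*, its partner in the ferritin shell, and for *Tfrc*, the uptake receptor, whose mark was near equal in the 2 groups. They lie at chr19:9982396-9982645 on the plus strand, chr7:45459887-45460136 on the minus strand and chr16:32608646-32608895 on the plus strand. Each reads 5′ to 3′ on the strand of its gene, and capitals mark the matches to the motifs named after them.
Fth1: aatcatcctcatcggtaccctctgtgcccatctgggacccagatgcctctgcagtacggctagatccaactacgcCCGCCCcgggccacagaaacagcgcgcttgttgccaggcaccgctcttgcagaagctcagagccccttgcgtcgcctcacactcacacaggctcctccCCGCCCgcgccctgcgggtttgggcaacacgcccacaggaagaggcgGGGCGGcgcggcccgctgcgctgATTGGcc
Ftl1: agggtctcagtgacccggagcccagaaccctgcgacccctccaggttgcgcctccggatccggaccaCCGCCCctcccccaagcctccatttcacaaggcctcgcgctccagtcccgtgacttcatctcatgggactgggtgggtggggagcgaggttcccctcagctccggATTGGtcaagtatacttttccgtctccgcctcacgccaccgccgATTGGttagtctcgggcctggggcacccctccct
Tfrc: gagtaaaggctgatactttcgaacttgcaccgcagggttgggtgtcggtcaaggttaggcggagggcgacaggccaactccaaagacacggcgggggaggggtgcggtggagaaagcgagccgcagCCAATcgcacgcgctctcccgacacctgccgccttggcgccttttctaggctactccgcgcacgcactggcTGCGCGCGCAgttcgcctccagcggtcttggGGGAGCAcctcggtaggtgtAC

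The motifs were searched on both strands of the 300-base windows. They were the GC box GGGCGG, the CCAAT box CCAAT, the TATA box TATAAA and the E-box CACGTG. The hypoxia response element core ACGTG (which the E-box contains) and the antioxidant response element TGACNNNGC were also searched. So was the metal response element core in a loose form, TGCNCNC, whose matches need not be such elements. *Fth1* held GC boxes 175, 77 and 30 bases before its start and a CCAAT box 7 bases before it. *Ftl1* held 1 GC box 183 bases and CCAAT boxes 78 and 34 bases before its start, and a TATA box 18 bases after it. *Tfrc* held a CCAAT box 124 bases before its start. It also held 3 matches to the loose metal response element core, 2 of which overlap on opposite strands. The hypoxia response element core of *Tfrc* began 2 bases before the start and runs past it, so only its first letters are shown.

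The GC box was in 5 of the 7 windows (*Fth1*, *Ftl1*, *Ireb2*, *Aco1* and *Pcbp1*) and in 35.7% of all 32851 windows. The CCAAT box was in 3 of the 7 and in 37.4% of all. The antioxidant response element was in none of the 7 and in 12.4% of all. The hypoxia response element core was in 3 and in 19.6%, and the E-box in 1 (*Pcbp1*) and in 7.15%. The loose metal response element core was in 3 and in 51.0%, and the TATA box in 1 and in 13.6%. The 7 windows held 14 to 32 CpG dinucleotides each, beside a median of 7 and quartiles of 3 and 20 over all windows. These matches describe the letters of the windows and were not tied to the H3K4me3 values.

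Peak positions are given as the deposited table lists them. They are not those of GRCm38 and were not set beside the windows above. Each of the 16 peaks spans 400 bp. Their levels are given in CPM, reads per 1000000 reads in listed peaks. Width does not enter a comparison between them, but the placing of the peak and the mapping of reads at each locus can. The libraries held 3244495 to 3463731 reads in listed peaks. The test was the two-sided quasi-likelihood test of edgeR on the reads, with p adjusted by Benjamini-Hochberg over all listed peaks or, where reads were summed by gene, over all genes. The threshold was 0.05. Fold changes are KLG4m/m over KL. For a single peak, exact permutation of the 4 libraries gives no p below 0.333.

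As to the sort, *Epcam* had peaks in every library, with a summed level of 52.5 and 57.6 CPM in KL and 33.4 and 29.0 CPM in KLG4m/m. *Ptprc*, which encodes CD45, was listed at 54.5 to 70.0 CPM over the 4 libraries, and *Pecam1*, which encodes CD31, at 62.3 to 81.7 CPM. These levels sum 2 listed peaks for *Epcam*, 2 for *Ptprc* and 6 for *Pecam1*, so they do not rank the genes against each other. Of 8 epithelial markers 2 were lower in KLG4m/m past the threshold, and their summed level was 380 to 385 CPM in KL and 336 to 345 CPM in KLG4m/m. Summed levels of the other markers were 215 to 232 against 275 to 280 CPM for 9 lymphocyte genes (3 higher), 249 to 259 against 275 to 288 CPM for 8 macrophage genes (2 higher, 1 lower), and 155 to 158 against 208 to 210 CPM for 10 neutrophil genes (3 higher). They were 261 to 292 against 289 to 293 CPM for 7 endothelial genes (1 higher, 1 lower) and 64.6 to 71.7 against 69.5 to 72.8 CPM for 3 fibroblast genes (1 higher). Of all genes, 5.38% were called higher and 9.63% lower past the threshold. *Marco*, *Cd163*, *Cd79a*, *Col1a2*, *Dcn* and *Lum* had no listed peak. The neutrophil list was added after the values of the iron genes were seen. The epithelial, lymphocyte, macrophage and neutrophil sums did not overlap between the groups, while the endothelial and fibroblast sums did. The part of these levels in the results that follow was not tested. In bulk libraries, more cells with the mark and more of the mark per cell cannot be told apart.

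The mark rose at *Fth1* in KLG4m/m, and this was the 1 peak of the 16 past the threshold. *Fth1* encodes the ferritin heavy chain, the subunit that oxidizes ferrous iron so that it can be laid down in the shell. Its peak (chr19:9959775-9960175, at the start site of transcript NM_010239.2) held 292 and 264 reads in KL and 348 and 326 in KLG4m/m, and the groups did not overlap. The mean level went from 80.0 CPM ± 5.63 in KL to 101 CPM ± 0.0105 in KLG4m/m (SD, n = 2 each). This is a rise of 26.1% (log2 fold change 0.33, SE 0.0906, 95% interval 0.15 to 0.52, edgeR adjusted p = 0.0204). An SD from 2 values is rough, and the counting error of these reads is larger than 0.0105 CPM. Of all listed peaks, 3.1% were higher and 5.52% lower past the threshold. Of those within 1 kb of a start site, 2.89% were higher and 8.43% lower. The 1 call in 16 peaks is to be read against these shares.

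The log2 fold change of *Fth1* kept its direction in every alternative run, from 0.26 to 0.41, while the call did not always hold. DESeq2 gave nearly the same log2 fold change (0.33) with an adjusted p of 0.376. With KL replicate 2 left out the value was 0.26 (edgeR adjusted p = 0.218), and with KL replicate 1 left out it was 0.41 (edgeR adjusted p = 0.0249). With KLG4m/m replicate 3 or 4 left out it was 0.33 and 0.34 (edgeR adjusted p = 0.31 and 0.337). In each fit with a library left out, 1 group has a single library and only the other group supplies the spread. The lone library is assumed to vary like that group. Why the call was lost in some of these fits and kept in another was not tested. The ferritin heavy chain has processed copies elsewhere in the mouse genome, and reads of low mapping quality had been removed by the authors, so how a copy could share reads with *Fth1* was not tested.

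**Figure D1:**
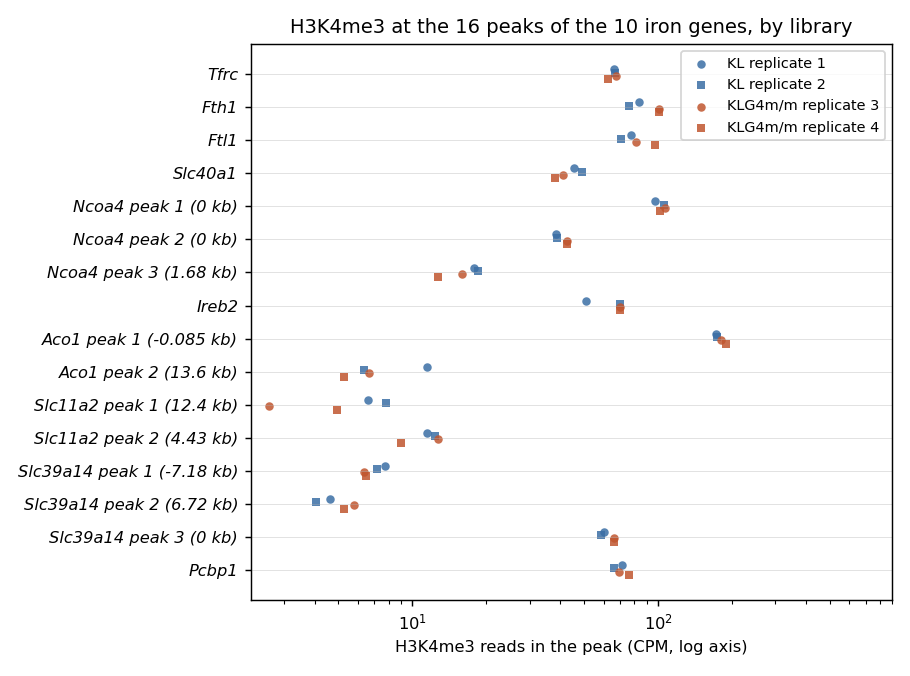
H3K4me3 reads in each of the 16 peaks as CPM on a log axis, 1 point per library, with KL in blue and KLG4m/m in orange; for genes with several peaks the distance from the start site is given in kb. The orange points of *Fth1* lie together at 101 CPM, above both KL points, and the *Aco1* promoter peak is the highest of all.

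The light chain gene *Ftl1*, which encodes the subunit that helps iron cores form, held 271 and 246 reads in KL and 280 and 313 in KLG4m/m at its start site (chr7:45109084-45109484). Both KLG4m/m values were above both KL values, at means of 74.4 CPM ± 5.02 and 89.1 CPM ± 11.1 (SD, n = 2 each). The log2 fold change was 0.26 (95% interval 0.05 to 0.46), with an unadjusted edgeR p of 0.0172 and an adjusted p of 0.112, so the difference did not pass. The gap between the 2 KLG4m/m libraries was the wider one here, unlike at *Fth1*.

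*Ncoa4* encodes the receptor that carries ferritin to the lysosome for breakdown. Its main promoter peak (chr14:31881684-31882084) was among the highest of the set, and held 337 and 368 KL reads beside 367 and 329 KLG4m/m reads. The groups overlapped there, and the log2 fold change was 0.04 (95% interval -0.14 to 0.22, edgeR adjusted p = 0.829). A second peak at the start of another transcript held 133 and 135 reads against 147 and 137 (log2 fold change 0.14, edgeR adjusted p = 0.53). The peak 1.68 kb from a start site held 62 and 64 against 55 and 41 reads (log2 fold change -0.33, edgeR adjusted p = 0.303). So the 3 peaks of *Ncoa4* were on both sides of 0 and none passed.

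*Pcbp1* encodes a chaperone that hands iron to ferritin and is also an RNA-binding protein. Its peak, 547 bp downstream of the start of this gene, held 248 and 229 reads in KL and 240 and 246 in KLG4m/m. The groups overlapped (log2 fold change 0.08, 95% interval -0.12 to 0.29, edgeR adjusted p = 0.647).

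The iron sensors were marked to unequal heights. *Aco1*, which encodes the cytosolic aconitase that turns into iron regulatory protein 1 when it loses its iron-sulfur cluster, had the highest peak of the set, 85 bp upstream of its start. It held 599 and 601 reads in KL and 621 and 608 in KLG4m/m, that is 173 CPM ± 0.561 and 184 CPM ± 5.77 (SD, n = 2 each). This level was above that of 99.95% of all listed peaks within 1 kb of a start site. The groups did not overlap, by a small margin, and the log2 fold change of 0.09 (95% interval -0.05 to 0.24) did not pass (edgeR adjusted p = 0.447). A weak peak of *Aco1* in intron 2, 13.6 kb from the start, held 40 and 22 against 23 and 17 reads (log2 fold change -0.57, edgeR adjusted p = 0.264), and KL replicate 1 alone stood high.

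*Ireb2*, which encodes iron regulatory protein 2, held 177 and 242 reads in KL and 242 and 226 in KLG4m/m at its start. The low value was KL replicate 1, and the other 3 libraries lay between 69.7 and 70.2 CPM. The log2 fold change was 0.22 (95% interval -0.03 to 0.46, edgeR adjusted p = 0.261). Leaving out KL replicate 2 gave 0.46 (edgeR adjusted p = 0.0414) and leaving out KL replicate 1 gave 0.01, so a single KL library set its size.

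*Tfrc* encodes the transferrin receptor, the main door for iron into dividing cells. Its promoter peak (chr16:32427596-32427996) held 231 reads in each KL library and 232 and 202 in KLG4m/m. The levels were 66.5 CPM ± 0.0591 and 64.9 CPM ± 3.35 (SD, n = 2 each), and the groups overlapped. The log2 fold change was -0.03 with a 95% interval of -0.24 to 0.18 (edgeR adjusted p = 0.881), so a difference as large as that of *Fth1* (0.33) lies outside the interval of *Tfrc*. Whether *Fth1* and *Tfrc* differ from each other was not tested.

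*Slc11a2* encodes DMT1, the transporter that moves ferrous iron across the plasma membrane and out of endosomes. It had no listed peak within 1 kb of a start site and 2 weak ones inside the gene. In exon 10, 12.4 kb from the start, 23 and 27 reads in KL stood against 9 and 16 in KLG4m/m, or 7.20 CPM ± 0.821 against 3.78 CPM ± 1.66 (SD, n = 2 each). Both KLG4m/m values were below both KL values. This was the change furthest from 0 among the 16 peaks, with a log2 fold change of -0.94 (95% interval -1.66 to -0.21). It did not pass (edgeR unadjusted p = 0.0138, adjusted p = 0.0991), and at 9 to 27 reads the counting error is a large part of each value. In intron 2 the reads were 40 and 43 against 44 and 29 (log2 fold change -0.13, edgeR adjusted p = 0.785), with overlap.

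*Slc39a14* encodes ZIP14, which takes up iron that is not bound to transferrin, and zinc. Its promoter peak held 210 and 203 reads in KL and 229 and 214 in KLG4m/m, a log2 fold change of 0.16 (95% interval -0.05 to 0.37, edgeR adjusted p = 0.359). The 2 intron peaks held 14 to 27 reads each. Their log2 fold changes were -0.22 and 0.36, and neither passed (edgeR adjusted p = 0.693 and 0.568).

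*Slc40a1* encodes ferroportin, the only known exporter of iron from animal cells. Its promoter peak (chr1:45964712-45965112) held 158 and 171 reads in KL and 141 and 123 in KLG4m/m. The levels were 47.4 CPM ± 2.69 and 39.5 CPM ± 1.99 (SD, n = 2 each), and both KLG4m/m values were below both KL values. In every library this was below the promoter peaks of *Tfrc* and *Slc39a14*. The log2 fold change was -0.26 with a 95% interval of -0.52 to -0.00, and the difference did not pass (edgeR unadjusted p = 0.0477, adjusted p = 0.198).

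**Figure D2:**
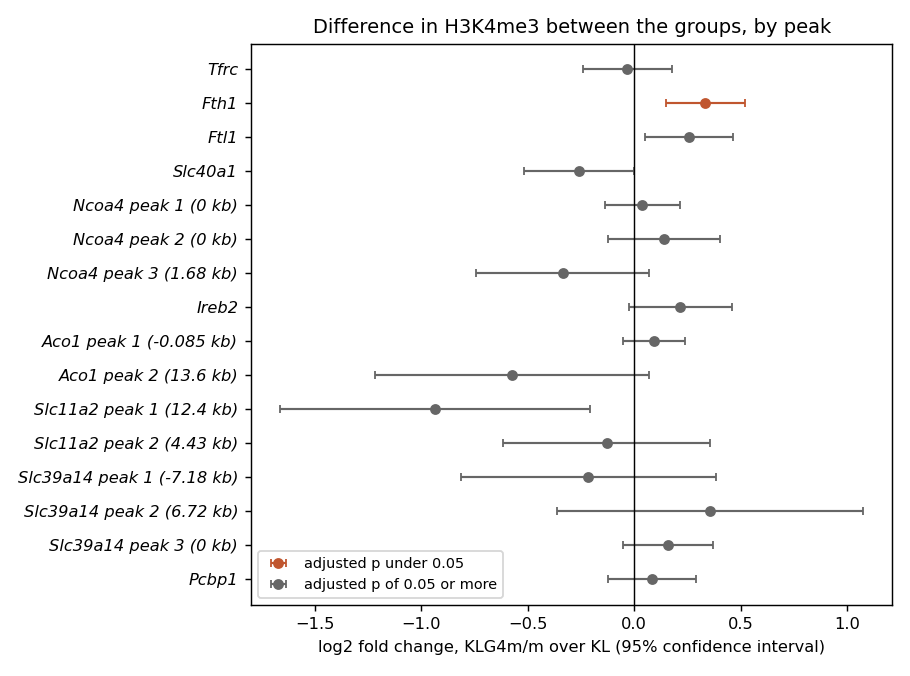
Log2 fold change of H3K4me3, KLG4m/m over KL, at each of the 16 peaks, with the 95% interval from edgeR; orange marks the peak past the threshold on the adjusted p. The 10 peaks within 1 kb of a start site have short intervals, and the weak peaks inside genes have wide ones.

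Over the 16 peaks, 9 had a log2 fold change above 0 and 7 below, with a median of 0.06, beside 51% above 0 and a median of 0.01 over all listed peaks. An unadjusted p under 0.05 was found at 4 of the 16 (*Fth1*, *Ftl1*, *Slc40a1* and the exon 10 peak of *Slc11a2*), beside 24.6% of all peaks. The libraries of the groups did not overlap at 7 peaks with the higher values in KLG4m/m and at 4 with the lower, beside 27.5% and 26.6% of all peaks. Of the 10 peaks within 1 kb of a start site 8 were above 0, with a median of 0.12, where 50.4% of all such peaks were above 0. Of the 6 peaks farther out 5 were below 0, with a median of -0.28, where 51.6% of all such peaks were above 0. These 6 held 9 to 64 reads per library.

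With reads summed by gene, 7 genes were above 0 (50.3% of all genes were) and 3 below. *Fth1* was the 1 that passed (log2 fold change 0.33, edgeR adjusted p = 0.00627), beside 5.38% of all genes called higher and 9.63% lower. *Ftl1* came next in p, at an edgeR adjusted p of 0.0622, then *Slc40a1* at 0.167. These 3 genes have 1 listed peak each, so their gene values use the same reads as their peak values and add no second support. *Slc11a2*, with both of its peaks below 0, came to -0.39 on the log2 scale, at an edgeR adjusted p of 0.187.

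*Gpx4* itself had a higher promoter mark in KLG4m/m. Its peak held 242 and 236 reads in KL and 304 and 301 in KLG4m/m, a log2 fold change of 0.40 (SE 0.0941, edgeR adjusted p = 0.00854). The deleted part of the gene lies downstream of this peak, so the value does not check the deletion. The Gpx4m/m allele also holds DreERT2 and a CAG promoter, so the locus itself differs between the groups. The part of this insert in the value was not tested. The rise at *Fth1* was of a similar size, and the difference between the 2 was not tested.

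Around the *Fth1* peak, 11 peaks of other genes are listed within 100 kb. Past the threshold 2 of them were higher and none lower, beside 3.1% and 5.52% of all listed peaks. The unadjusted edgeR p was under 0.05 at 4, beside 24.6% of all listed peaks. Both calls were peaks of *Gm36913*, a noncoding RNA gene upstream of *Fth1*. The intron peak 51.2 kb away held 35 and 29 reads in KL and 58 and 51 in KLG4m/m (log2 fold change 0.82, edgeR adjusted p = 0.0201). The exon peak 43.6 kb away held 49 and 50 against 72 and 78 reads (log2 fold change 0.66, edgeR adjusted p = 0.0276).

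The nearest peak upstream of *Fth1*, assigned to *Gm41806* and 7.62 kb away, held 52 and 49 against 71 and 74 reads. Its log2 fold change was 0.58 (edgeR adjusted p = 0.0517). The nearest downstream, in exon 3 of *Best1* and 10.6 kb away, held 82 and 90 against 59 and 55 reads (log2 fold change -0.54, edgeR adjusted p = 0.0543). Neither passed, and the groups did not overlap at either. All 4 downstream peaks had values below 0, and the upstream ones lay on both sides of 0. For *Ftl1*, none of 15 such peaks passed, and for *Slc40a1* no peak of another gene is listed within 100 kb. Members that did not pass had called neighbours too. Within 100 kb, 1 of 11 peaks was higher near *Tfrc* and 1 of 14 near *Pcbp1*. Near *Slc11a2* 1 of 9 was lower, and near *Slc39a14* 1 of 8 was higher and 1 lower. Near *Ncoa4*, *Ireb2* and *Aco1* none passed.

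**Figure D3:**
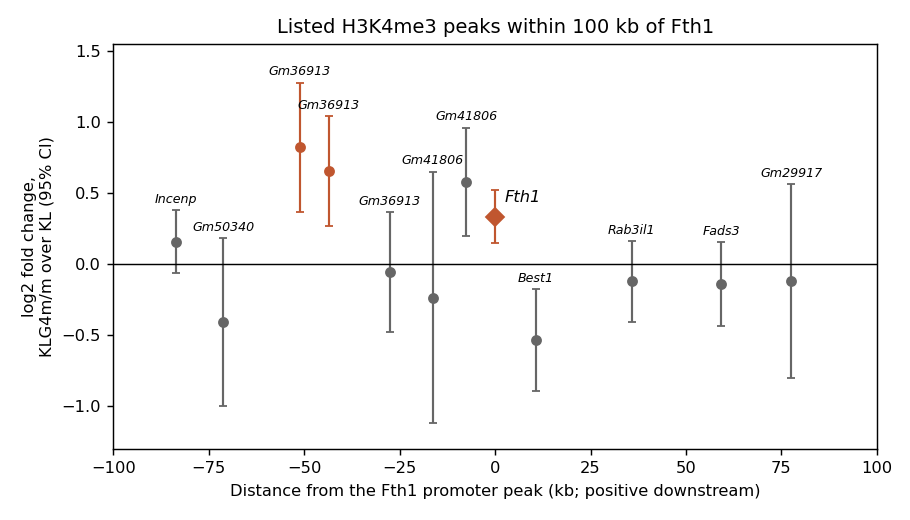
Log2 fold change, KLG4m/m over KL, with 95% intervals, of the listed peaks within 100 kb of the *Fth1* promoter peak (diamond), against distance in kb; orange marks an adjusted p under 0.05. Besides *Fth1*, the 2 orange points are the *Gm36913* peaks at 51.2 and 43.6 kb upstream.

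The genes whose summed level, as log2(CPM + 1), followed that of *Fth1* most closely over the 4 libraries were *Gm52118*, *Gm34922* and *Eipr1* among 16260 genes with a mean of at least 10 CPM. Pearson's r was at least 0.99984 for each, over 4 points that share their groups. As 1124 genes had r above 0.95, this likeness is shared widely.

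Beyond the 10 members, 86 other genes of iron handling were put in 6 lists, and 71 of them had a listed peak. By gene, 3 were higher and 12 lower in KLG4m/m past the threshold, and 27 had an unadjusted edgeR p under 0.05, beside 28.8% of all genes. The median log2 fold change was -0.01, beside 0.00 over all genes, of which 5.38% were called higher and 9.63% lower. DESeq2 called 3 of the 71 (*Steap4*, *Rnf217* and *Abcb10*), beside 122 of all 20871 genes called higher and 337 lower. The edgeR count was 7 without KL replicate 2 and 0 without either KLG4m/m library, where none of the 20871 genes passed and 21 and 19 of the 71 had an unadjusted p under 0.05.

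The 3 genes that rose were all in the list of uptake and reduction, in which 16 of 17 genes had a peak. *Steap4*, a metalloreductase that turns ferric into ferrous iron, had a single peak in intron 1, 14.1 kb from its start. It held 6 and 8 KL reads beside 21 and 35 KLG4m/m reads (log2 fold change 2.04, edgeR adjusted p = 8.92e-05). *Ltf*, which encodes lactotransferrin, an iron-binding protein of secretions and neutrophil granules, held 18 and 16 against 33 and 36 reads (log2 fold change 1.07, edgeR adjusted p = 0.0085). *Lcn2* encodes lipocalin 2, which binds iron-loaded siderophores and is also made by neutrophils and inflamed epithelium. It held 80 and 86 against 118 and 105 reads (log2 fold change 0.48, edgeR adjusted p = 0.0255). *Steap4* and *Ltf* are weak and drop out where a mean of at least 10 CPM is required. In that run 1 of the other iron genes was called higher (*Lcn2*) and 13 lower.

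Beside these rises, the neutrophil genes *S100a8* (0.43), *S100a9* (0.65) and *Cxcr2* (0.41) had log2 fold changes past the threshold (edgeR adjusted p = 0.0374, 0.00226 and 0.00503), while 7 of the 10 neutrophil genes did not pass. The summed level of all 10 was 155 to 158 CPM in KL and 208 to 210 CPM in KLG4m/m, and its part in the rises was not tested.

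In the same list 3 of the 16 genes with a peak fell and 3 rose, beside 9.63% of all genes called lower and 5.38% higher. *Steap1*, another member of the metalloreductase family, changed by -0.59 (edgeR adjusted p = 0.00507). *Mcoln1*, a channel that lets iron out of lysosomes, held 278 and 298 reads in KL and 201 and 200 in KLG4m/m at its promoter, and its gene value was -0.47 (edgeR adjusted p = 0.000378). *Exoc6*, an exocyst subunit needed for the transferrin cycle in red cell precursors, had -0.27 (edgeR adjusted p = 0.0157).

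Of the 8 genes of storage, chaperones and sensing with a peak, 2 fell and none rose. Over all genes 9.63% were called lower and 5.38% higher. *Cisd2*, which encodes an iron-sulfur protein of the outer mitochondrial and endoplasmic reticulum membranes, held 182 and 270 reads against 117 and 109 at its promoter, with a gene value of -0.84 (edgeR adjusted p = 7.99e-08). *Epas1*, which encodes the hypoxia factor HIF-2alpha, whose mRNA iron regulatory protein 1 binds, changed by -0.32 (edgeR adjusted p = 0.0156). This rests on all its peaks together: read from the peak nearest its start it was -0.21 (edgeR adjusted p = 0.215) and from its highest peak -0.22 (edgeR adjusted p = 0.196), neither past the threshold.

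Of the 8 genes of export and the hepcidin axis, 3 fell and none rose, beside 9.63% of all genes called lower and 5.38% higher. *Rnf217*, which encodes a ubiquitin ligase that acts on ferroportin, fell by 50.0% (edgeR adjusted p = 4.47e-05), and its promoter peak held 36 and 61 KL reads beside 15 and 11 KLG4m/m reads. *Erfe*, the erythroid hormone that lowers hepcidin, held 92 and 96 against 55 and 42 reads (log2 fold change -0.90, edgeR adjusted p = 0.000157). *Bmp2*, a ligand that raises hepcidin, had -0.60 (edgeR adjusted p = 0.0198). Hepcidin itself is made mainly by the liver, and here only the mark of these genes in sorted lung tumor cells was measured.

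Heme handling and synthesis had 2 falls among 16 genes, the heme exporter gene *Abcg2* (-0.43, edgeR adjusted p = 0.00709) and *Fech* (-0.40, edgeR adjusted p = 0.0173), whose product puts iron into heme. Mitochondrial iron and iron-sulfur clusters had 2 falls among 15 genes. These 2 lists stand beside 9.63% of all genes called lower. *Abcb10*, which encodes a transporter of the inner mitochondrial membrane used in heme synthesis, held 280 and 252 against 179 and 153 reads at its promoter, with a gene value of -0.56 (edgeR adjusted p = 3.68e-05). *Glrx5*, which passes on iron-sulfur clusters, had -0.27 (edgeR adjusted p = 0.0312). Of the 8 genes of cytosolic iron-sulfur clusters none passed in edgeR and 2 had an unadjusted p under 0.05. Beside these falls, the 8 epithelial markers had a median log2 fold change of -0.07 and ran from -0.82 (*Epcam*) to 0.27 (*Esrp1*), with 3 above 0 and 5 below. *Epcam* and *Cdh1* were the 2 that passed, and the part of these levels in the falls was not tested.

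**Figure D4:**
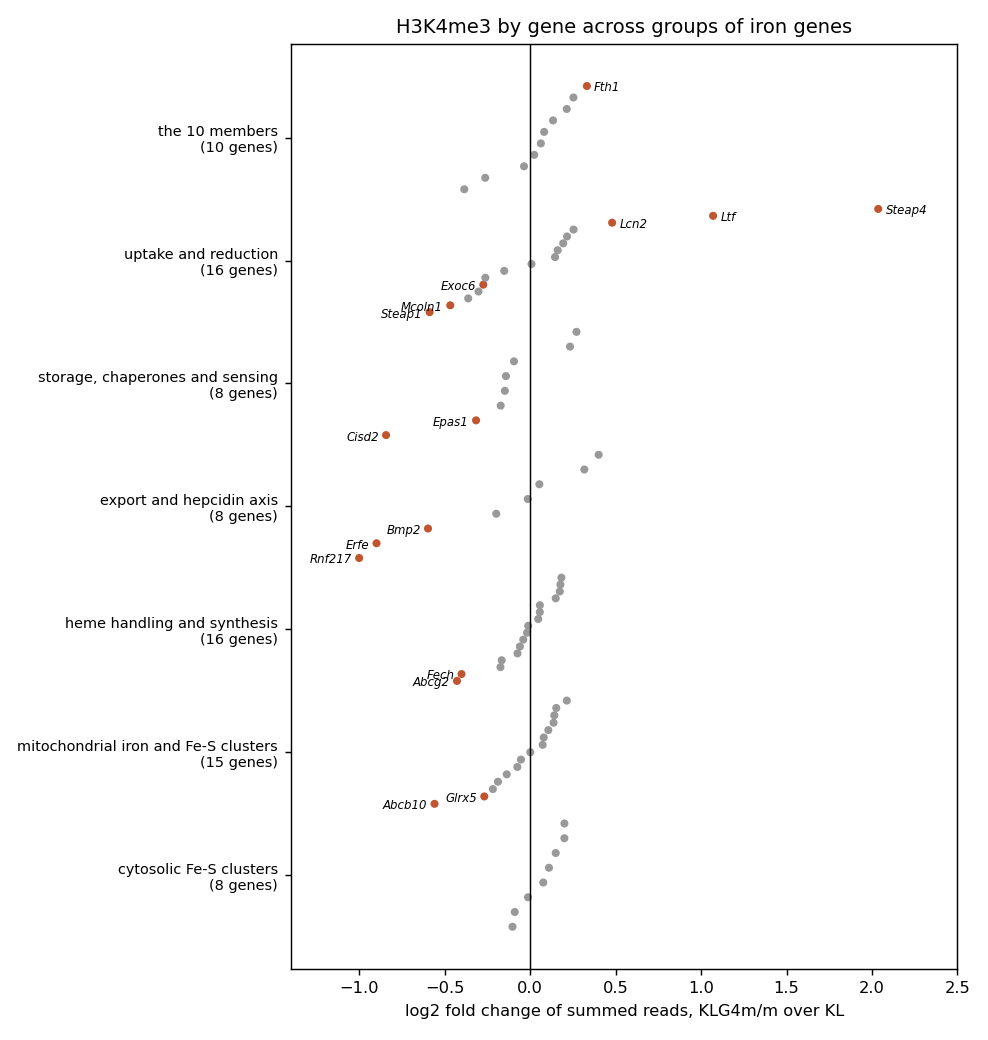
Log2 fold change of reads summed per gene, KLG4m/m over KL, for the 10 members and the 6 lists of other iron genes, 1 point per gene, ordered by value within a list; orange and a name mark an adjusted p under 0.05. The called genes to the right of 0 are *Fth1* and the uptake genes *Steap4*, *Ltf* and *Lcn2*, and the other 12 called genes lie to the left.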

How the data were processed

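H3K4me3 was measured by CUT&Tag in 4 libraries of sorted tumor cells, 2 of KL and 2 of KLG4m/m mice, grouped by their labels. Part of the genotype that both groups share is not reported here. The protocol names a CUT&Tag kit and describes digestion with pAG-MNase. The H3K27ac libraries were not analysed here. The authors trimmed reads with Trim Galore 0.6.10, mapped them with BWA 0.7.15, removed duplicates with Picard 2.17.3 and reads of low mapping quality, called peaks with MACS2 2.2.7.1 and used HOMER 4.11.1 (versions from the submitters' processing notes). How peaks were merged and reads counted is not given in the sources used here. The deposited table holds whole read counts per peak and library, which were tested, and CPM scaled by the authors to the reads in listed peaks, so a shift common to all peaks cannot be seen. It also holds the distance of each peak to a start site, and the authors' own comparison (fold changes, F and p-values), which was not used.

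Counts were scaled with TMM factors and fitted with edgeR 4.0.16 (glmQLFit, glmQLFTest, group as the one term, no filter) in R 4.3.3, over all 35486 peaks and over the reads summed for 20871 genes. Levels are TMM-scaled CPM with the SD of 2 libraries, which is rough and can fall below the counting error of the reads. Over all peaks, chi-square per degree of freedom was 1.13 between the KL libraries, 1.23 between the KLG4m/m libraries and 2.37 to 2.80 between groups. Each library was counted as 1 sample because the labels list it as one and no 2 libraries agreed within sampling noise, which does not show that they come from separate mice. Depth was 3244495 to 3463731 reads in listed peaks, and intervals come from the fit. Alternatives were DESeq2 1.42.0, limma 3.58.1 on log2(CPM + 1) or log2(CPM + 0.25), RLE factors, total reads, TMM from promoter peaks, a mean of at least 10 CPM, an unadjusted p, an added 1.5-fold change, the nearest or highest peak per gene, and leaving out each library. Named were all members with all peaks, up to 3 rises and 3 falls per list of other iron genes past the threshold, the nearest peaks beside a called member, the 3 genes most like it, and *Gpx4*. Genes cited as cell markers or as having no listed peak were named besides. The members and lists were chosen with earlier results of these data known. Sequences were matched by symbol to RefSeq promoter windows of GRCm38.p6, and where a gene has several windows the one whose start best matched the table's transcript length was taken. *Slc40a1*, *Slc11a2* and *Slc39a14* had none.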

Additional observations from a re-analysis of the deposited data

How the results depend on the processing

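No paired analysis was possible because the KL and KLG4m/m libraries share no replicate number. Of the 577 values of single peaks and genes under the alternatives, over 41 results, 489 kept their direction and side of the threshold, 75 lost the call, 7 gained one and 6 reversed. The reversed ones were near 0 and none passed the threshold: leaving out 1 library at a time, log2 fold changes ran from -0.0919 (without KLG4m/m replicate 3) to 0.0193 (without KLG4m/m replicate 4) for the *Tfrc* peak and from -0.0952 to 0.0187 for the gene, from -0.0247 (without KL replicate 1) to 0.104 (without KL replicate 2) for the first *Ncoa4* peak, from -0.0178 (without KLG4m/m replicate 3; -0.0164 without KL replicate 1) to 0.0787 for the *Ncoa4* gene, and from -0.414 (without KLG4m/m replicate 3) to 0.0972 (without KLG4m/m replicate 4) for the intron 2 peak of *Slc11a2*. The count of member peaks called (1) and of member genes called (1) was 0 and 0 with DESeq2, 0 and 0 with an added 1.5-fold change, and 4 and 3 at an unadjusted p under 0.05. With DESeq2, 1 member peak and 1 member gene had an unadjusted p under 0.05, beside 2735 of all 35486 listed peaks. On leaving out 1 library, *Fth1* kept its call as peak and as gene only without KL replicate 1. Without KL replicate 2 the member called was *Ireb2* (peak log2 fold change 0.46) and not *Fth1* (0.26). The 15 other iron genes called became 3 with DESeq2, 7 with the added fold change, 27 at an unadjusted p, and 0 to 11 on leaving out 1 library. Over all peaks, calls went from 1099 higher and 1960 lower to 33 and 250 with DESeq2, and to 0 and 0 without KLG4m/m replicate 3 or 4; the cause was not tested. The other scalings, the filter and limma kept the *Fth1* call. The weak peaks, with 9 to 64 reads per library, are limited by counting error.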
